A study of Homo sapiens with 3 samples.

Results

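MicroRNA genes that the authors' annotation named for YBX1 peaks are described here, together with the peaks that name them. YBX1, a nucleic acid binding protein with a cold-shock domain, was immunoprecipitated from crosslinked chromatin of untreated HEL cells, an established human erythroleukaemia line with a mutated JAK2 gene. The series held 3 libraries: 2 YBX1 immunoprecipitations, replicates 1 and 2, and 1 input of sheared chromatin against which both were called. All 3 libraries came from the same unperturbed line, so the design holds no contrast between conditions, and the comparison made here is between the replicates. Separate cultures are not stated for the replicates, so the spread between them may be technical.

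A peak was a member when 1 of the gene symbols in its row was a microRNA gene (MIR followed by a digit, host genes ending in HG not counted), outside the sex chromosomes and a stretch near the start of chromosome 1. Replicate 1 held 1089 such peaks among 21569 (5.05%), and replicate 2 held 876 among 16236 (5.40%). Together they named 528 microRNA symbols, 488 in replicate 1 and 409 in replicate 2. The replicate 1 library had 10275569 tags and the replicate 2 library 10190347, against 77308330 in the input. A row often names neighbours on both sides of a peak: the median row named 3 genes in each list, and only 17.6% and 15.8% of member rows named microRNA genes alone. A named microRNA is therefore at most a neighbour in the authors' annotation, and no distance to its hairpin was measured here. Some named microRNAs lie on another chromosome in RefSeq, as described below.

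MicroRNAs are short RNAs cut from hairpins in longer primary transcripts by the Microprocessor, in which DGCR8 binds the RNA and DROSHA cuts it, and then by DICER1. The mature strand guides Argonaute proteins to messenger RNAs, mainly through its seed, the stretch near its 5′ end. Many hairpins sit in clusters transcribed together or in introns of host genes, and several microRNAs are known regulators of blood cell development. YBX1 itself is known as an RNA-binding protein that can associate with microRNAs and their precursors.

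The mature sequences of the microRNAs that the results below turn on are shown first, so that relatives can be told by their seeds (bases 2 to 8, in capitals). They come from RefSeq (GRCh38.p14) and are written 5′ to 3′. The first 3 belong to the 14q32 cluster and had a promoter-class peak in both replicates, and the next 2 also had promoter-class peaks. MIR155, MIR10A and MIR203A were blood-list members with peaks in both replicates. MIR4420 and MIR8052 stood near the top by fold enrichment. MIR5009 and MIR548W were named for introns on a chromosome other than their own.
miR-376a-3p: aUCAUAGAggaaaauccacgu
miR-376b-3p: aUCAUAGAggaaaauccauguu
miR-376c-3p: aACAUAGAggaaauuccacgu
miR-490-3p: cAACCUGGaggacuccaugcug
miR-3141: gAGGGCGGguggaggagga
miR-155-5p: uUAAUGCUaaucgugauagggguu
miR-10a-5p: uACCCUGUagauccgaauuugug
miR-203a-3p: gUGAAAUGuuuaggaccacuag
miR-4420: gUCACUGAugucuguagcugag
miR-8052: cGGGACUGuagagggcaugagc
miR-5009-5p: uUGGACUUuuucagauuuggggau
miR-548w: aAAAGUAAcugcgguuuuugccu

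The microRNAs named for peaks were not a group with a common seed. RefSeq gave mature sequences for 296 of the 343 microRNA genes that had a region shared by both replicates, and leaving out chromosome 8 these were 442 mature strands with 409 different seeds. Among these strands, a seed was shared by 2 or more genes in 29 cases and by at most 3 genes. Genes without a mature sequence there and those of chromosome 8 were not counted, so these are lower limits on sharing. The 3-gene cases were the seeds UCAUAGA of MIR376A1, MIR376A2 and MIR376B, GGUUGUC of MIR323B, MIR410 and MIR494, AAAACUG of MIR548F1, MIR548F3 and MIR548F5, and AAAGUAA of MIR548AP, MIR548B and MIR548W. The first pair of these groups lies in the 14q32 cluster and the second belongs to the MIR548 family.

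Most microRNA peaks found in replicate 2 were found in replicate 1, and somewhat over 50% the other way round. A peak counted as found in both when it shared 1 bp or more with any peak in the other replicate. In replicate 1, 618 of 1089 microRNA peaks did so (56.7%, 95% Wilson interval 53.8% to 59.7%), beside 53.8% of all peaks. In replicate 2, 692 of 876 did so (79%, 76.2% to 81.6%), beside 77.4% of all peaks. The microRNA shares thus lay near the background, and the intervals cover counting error only, since tags amplified by PCR are not independent molecules. By gene, 369 of the 528 symbols were named in both lists, 119 in replicate 1 only and 40 in replicate 2 only. A shared region named 343 of them (65%, 60.8% to 68.9%), beside 67% of all genes named in either list. The other 26 symbols named in both lists had peaks at places that did not overlap.

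The number of tags in a peak went with its recovery. Of replicate 1 microRNA peaks with 5 tags, the lowest number in the lists, 21.5% were found in replicate 2 (16.9% to 27%), against 117 of 118 peaks with 31 tags or more. The corresponding shares in replicate 2 were 52.7% (45.5% to 59.8%) and 69 of 69. Peaks found in both lists had a median of 14 tags in replicate 1 and 10 in replicate 2, whereas peaks found in 1 list had a median of 6 in each. Over all peaks these medians were the same, 14 and 10 for peaks found in both lists and 6 in each for the others. Peaks with 5 tags made up 23% and 21% of the microRNA peaks, beside 21.8% and 22% of all peaks. A microRNA named by 1 list alone thus often rests on little depth, which is not particular to microRNA peaks.

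**Figure D1:**
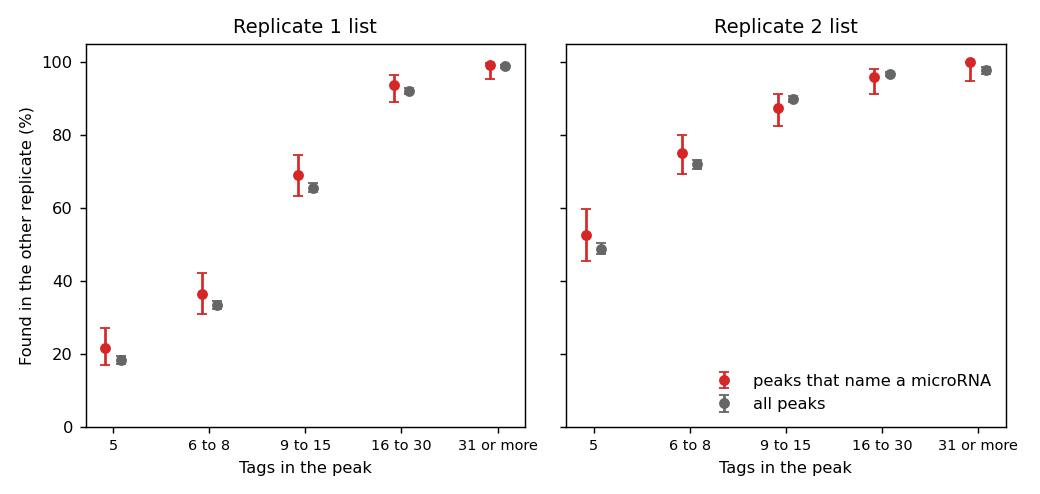
Share of peaks found in the other replicate (percent, vertical axis) by the number of tags in the peak, for peaks that name a microRNA (red) and all peaks (grey), with 95% Wilson intervals; the left panel is the replicate 1 list and the right panel the replicate 2 list. In replicate 1 the microRNA share rises from 21.5% at 5 tags to 99.2% at 31 tags or more, close to all peaks in each bin.

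Overlapping peaks merged into 523 shared regions that name a microRNA, 5.09% of 10269 shared regions in all. Joining regions less than 10 kb apart gave 322 loci, of which 196 held 1 region and the fullest held 7. The authors' fold enrichment compares tags at the summit with the local background, and its median over the 523 regions was 74.7 in replicate 1 and 66.3 in replicate 2, beside 77.3 and 65.5 over all shared regions. Log2 fold enrichment in the replicates had a Pearson correlation of 0.78 (Spearman 0.71 on fold) across the 523 regions, given as a description since both were called on the same input and regions are not replicates. The difference between replicates had a standard deviation of 0.51 on the log2 scale, or 0.36 within a region. For 44.3% of replicate 1 and 40.9% of replicate 2 microRNA peaks the fold was a whole multiple, within 0.006, of the 13.5 or 13.6 that 1 tag is worth over the genome-wide background, and so was not set by the local input. This held for 36.2% and 34.6% of all peaks.

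**Figure D2:**
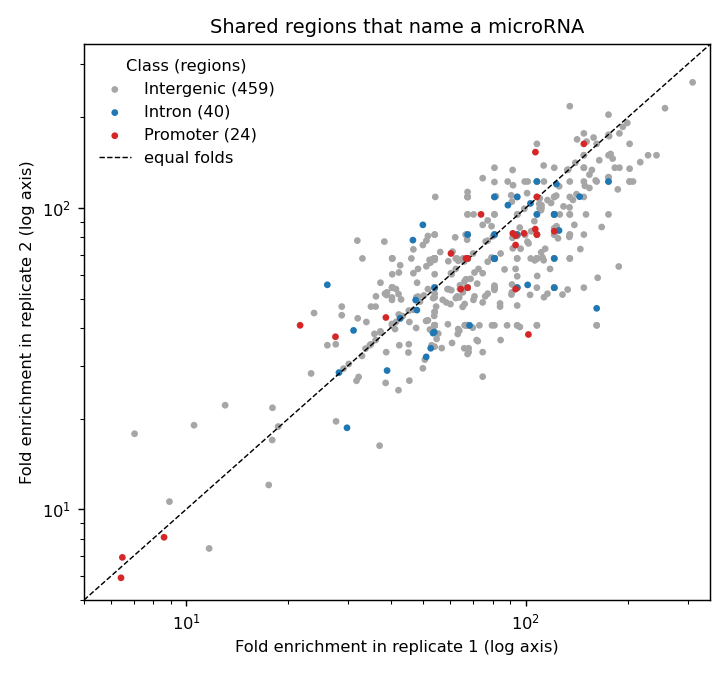
Fold enrichment of the 523 shared microRNA regions in replicate 1 (horizontal) against replicate 2 (vertical), on log axes, with points colored by the position class in replicate 1 and a dashed line where both are equal. Promoter-class regions (red) spread over much of the range, and 3 of them lie at the low end, below a fold of 9 in both replicates.

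By position, microRNA regions were mostly intergenic. The class was intergenic for 459 of 523 shared regions (87.8%, 84.7% to 90.3%), intron for 40 (7.65%) and promoter for 24 (4.59%), and none was classed exon. Over all shared regions, which include some that name no gene, 59.4% were intergenic, 37.1% intron and 2.94% promoter. Over the shared regions that name other genes only, 44.8% were intergenic, 50.7% intron and 3.74% promoter. A microRNA gene is annotated as its short hairpin, and in these lists an intron or promoter class refers to a gene named in that row. The class shares thus depend on how rows are named, and a positional preference of the peaks was not tested. The class was the same in both replicates for all but 1 region, on chromosome 22 from 20238963 to 20239433, which was promoter of MIR1286 in replicate 1 and intron in replicate 2 with 33 and 18 tags.

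The intron class did not hold microRNAs at their own places. In replicate 1 all 82 pairs of an intron row and a microRNA symbol, and in replicate 2 all 74, named a microRNA that RefSeq (GRCh38) places on a different chromosome from the peak. Among promoter rows 0 of 102 and 0 of 68 pairs did so, with 4 and 3 pairs not matched in RefSeq, and among intergenic rows 34 of 1331 and 27 of 1054. RefSeq matched 520 of the 528 symbols, and 34 of these had a place on another chromosome in at least 1 row. All 40 intron-class shared regions, and 54 of the 523 shared regions (10.3%), named only such microRNAs. The builds differ, hg19 in the lists and GRCh38 in RefSeq, so only chromosomes were compared, and the cause was not tested.

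These intron symbols numbered 19, most of them in the MIR548 family, a large primate family whose hairpins derive from transposable elements. MIR5009 was named for 15 intron peaks in replicate 1 and 16 in replicate 2, spread over 409506 bp of chromosome 21, whereas RefSeq places this gene of 100 bp on chromosome 15. MIR6130 was named over 540781 bp of chromosome 9 and lies on chromosome 21 in RefSeq. MIR548T was named for 12 intron peaks in each replicate on chromosome 7, in rows that also name CNTNAP2, a neuronal adhesion gene, and lies on chromosome 4 in RefSeq. MIR548W was named on chromosome 17 beside MARCH10 for 13 and 17 intron peaks and lies on chromosome 16. Each symbol named for 2 or more intron peaks in a list was named over a stretch longer than the longest RefSeq gene of the 19, MIR7853.

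MIR548 was the commonest family. It was named for 43 shared regions by 25 symbols, and 36 of these regions named only MIR548 genes that RefSeq puts elsewhere. Their class was intron in 25 regions and intergenic in 18, and 32 of the 43 lay on simple tandem repeats (14 AGAT, 11 ATCC and 6 ACC). Their median fold enrichment was 80.9 in replicate 1 and 68 in replicate 2, near that of all microRNA regions. Of the 43 regions, 7 named MIR548W and 6 named MIR548T. The number of genes in a family was not taken into account when MIR548 was ranked as the commonest.

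Simple tandem repeats carried most microRNA regions. Of the 523 regions, 369 lay on one (70.6%, 66.5% to 74.3%), beside 67.7% of all shared regions. A further 73 had no annotated repeat, 44 lay on LINE elements, 13 on LTR elements, 12 on SINE elements and 5 on CpG islands. The LINE type HAL1-2a_MD held 24 regions (4.59%, beside 3.45% of all). The repeat class of the strongest peak differed between replicates in 56 regions (10.7%), so a class describes a region only as far as its strongest replicate 1 peak.

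Among tandem repeats, ATCC was the commonest unit in microRNA regions when regions were counted, and AGAT when loci were counted. Rotations and both strands of a unit were counted as one, so that ATCC includes TGGA and TCCA, AGAT includes TAGA and TCTA, and ACC includes TGG. ATCC made up 167 of the 369 tandem repeat regions (45.3%, 40.3% to 50.4%), AGAT 39% (34.2% to 44.1%) and ACC 35 (9.49%, 6.90% to 12.9%). Over all shared tandem repeat regions these shares were 33.1%, 55.6% and 4.27%. Without the regions whose microRNA symbols all lie on another chromosome in RefSeq, ATCC made up 48.5% (159 of 328). Among intergenic regions alone, ATCC made up 47.6% (42.2% to 53.0%) of the tandem repeats in rows that name a microRNA and 32% of those in rows that name other genes. The difference was not tested, because regions at one locus are not independent. With 1 region per locus, the strongest, AGAT made up 51.8% and ATCC 36.8% for microRNA loci, beside 65.6% and 26.5% over all loci.

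The ACC regions were gathered at few places. They fell in 12 loci, and 3 loci held 18 of the 35: the MIR147B locus on chromosome 15, the locus named for MIR548W, and the locus near DGCR8 on chromosome 22, each with 6. MicroRNA peaks on ACC repeats were found in the other replicate for 82.8% (71.1% to 90.4%) of 58 in replicate 1 and 97.1% (89.9% to 99.2%) of 68 in replicate 2, beside 63.3% and 89.4% of all ACC peaks. Many of the microRNA ACC peaks share a locus, and the difference was not tested. For microRNA peaks on AGAT repeats the shares were 79.7% and 95.9%, beside 84.5% and 95.4% of all AGAT peaks. For ATCC peaks they were 64.9% and 90.4%, beside 63.1% and 89.96%. Peaks without an annotated repeat gave 36% and 59.4%, beside 35.02% and 57.6%, so these 3 kinds lay near the background. The replicates shared 1 input library, so recovery in both lists is not independent evidence of YBX1 binding.

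The repeat units were rarely present in the hairpins themselves. A pair of AGAT units (GATAGATA or TATCTATC) was in 0 of the 263 RefSeq hairpins matched to microRNA genes with a shared region, beside 2 of 1562 in the table. A pair of ATCC units (GGATGGAT or ATCCATCC) was in 1 of 263, MIR411, beside 5 of 1562. A run of ACC units (TGGTGGTGG or CCACCACCA) was in 0 of 263, beside 3 of 1562. Both strands were searched, and the sequence under the peaks was not used here.

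The 12 regions with the highest lower fold of the replicates were all intergenic. The first was a TAGA repeat at MIR4424 on chromosome 1, with 589 and 547 tags and folds of 310 and 261. Next on chromosome 1, a TGG repeat from 31128073 to 31128687 near MIR4420, LAPTM5 and MATN1 had 161 tags in replicate 1 and 47 in replicate 2, at folds of 257.2 and 214.3. LAPTM5 encodes a lysosomal membrane protein of blood cells. On chromosome 11, a TAGA repeat from 130466304 to 130467275 named for MIR8052 had 692 and 629 tags, the most of any microRNA peak in either list, at folds of 199.2 and 191.5. On chromosome 17, a TAGA repeat from 7955813 to 7956789 near MIR4314, MIR6883 and PER1, a core circadian clock gene, had 236 and 179 tags at folds of 193.2 and 185.9.

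Others of the 12 ranged widely in tags. MIR6072 on chromosome 10 (2035773 to 2035886) had 28 and 29 tags at folds of 175 and 204 with no annotated repeat in either list. MIR331 and MIR3685 on chromosome 12 (95794838 to 95794926) had 22 and 24 tags at folds of 175 and 175, on a TCTA repeat. A MIR4532 repeat on chromosome 20 (56523872 to 56524548) had 158 tags in replicate 1 and 18 in replicate 2 at folds of 189 and 177, and where a list split a region into several peaks, the tags are those of the peak with the highest fold. A MIR3201 repeat on chromosome 22 (48599574 to 48600304) had 295 and 257 tags at folds of 151 and 166, and a MIR4417 repeat on chromosome 1 (5559139 to 5560051) had 326 and 239 tags at folds of 176 and 173. The remaining members of the 12 were MIR8060, MIR203A with MIR203B, and MIR4472-1. Neighbours in this order differed by at most 0.28 on the log2 scale of the lower fold. This is less than the spread of 0.36 within a region, taken over all shared microRNA regions, so the order of neighbours is not resolved. The lower fold was 261 for the first of the 12 and 151 for the last.

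A few symbols were named for many shared regions. Of the 343 microRNA genes, 153 had 1 region, 74 had 2 and 77 had 3. MIR4472-1 on chromosome 8 had the most, 11 regions in 4 loci over 70.3 kb, of which 9 were on tandem repeats, with up to 354 and 256 tags in a peak. MIR5009 had 10 and MIR6817 had 9, and MIR1286, MIR147B, MIR4730 and MIR548W had 7 each. The 7 MIR147B regions lay within 2617 bp of chromosome 15 and formed 1 locus, with 6 of them labelled as ACC repeats. Their folds ran from 40.5 to 148 in replicate 1 and from 40.8 to 177 in replicate 2, with 5 to 160 tags and 5 to 44 tags.

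**Figure D3:**
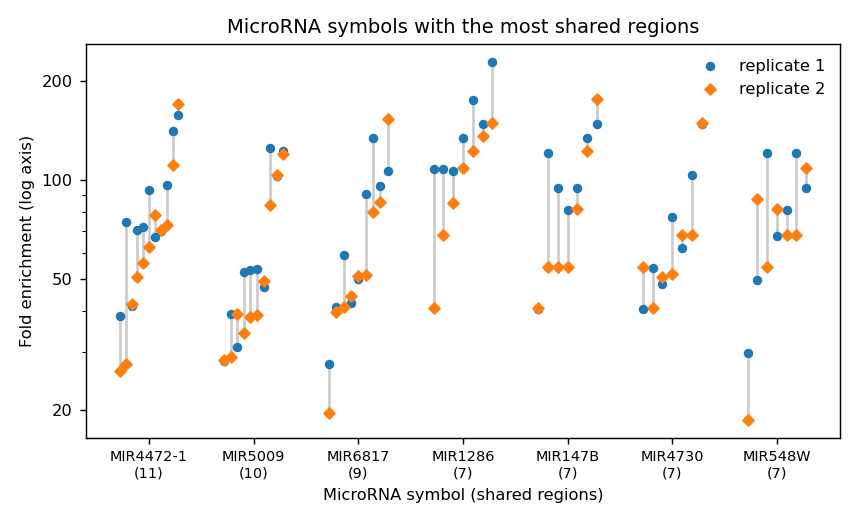
Fold enrichment (log axis) of each shared region named for the 7 microRNA symbols with the most regions, sorted within a symbol by the lower fold; circles are replicate 1, diamonds replicate 2 and grey lines join the same region. The regions of one symbol differ severalfold among themselves, as for MIR4472-1, whose lower fold ran from 26.3 to 158.

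Promoter-class regions in both replicates numbered 23 and named 19 microRNAs. Of these regions, 12 were on tandem repeats, 8 had no annotated repeat and 3 were on HAL1-2a_MD elements. Tags in the strongest peak had a median of 16 in replicate 1 and 14 in replicate 2. Of the promoter-class microRNA peaks, 32 of 68 in replicate 1 (47.1%) and 39 of 45 in replicate 2 (86.7%) were found in the other list, beside 49.9% and 70.1% of all promoter peaks. Another 36 promoter peaks, naming 37 microRNAs, were in replicate 1 only, at a median of 6 tags, and 6 were in replicate 2 only.

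The strongest promoter-class region by fold was at the MIR376 genes of the 14q32 cluster. On chromosome 14 a TGG repeat from 101504516 to 101504719 had 51 tags in replicate 1 and 41 in replicate 2, at folds of 148 and 163. A second region beside it, from 101504725 to 101505031, had 12 and 5 tags at folds of 66.7 and 68. The rows name MIR376A1, MIR376A2, MIR376B, MIR376C and MIR654, whose seeds are partly shared as shown above. A TCTA repeat at MIR6817 on chromosome 22 (25849139 to 25849254) had 20 and 26 tags at folds of 107 and 153. In RefSeq, MIR6817 lies within CRYBB2P1, a crystallin pseudogene.

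The 3 promoter-class regions with the lowest folds included those with the most tags. They lay on chromosome 21 from 9825532 to 9827580 and named MIR3648-1 and MIR3687-1, and RefSeq places MIR3648-1 within RNA45SN2, a ribosomal RNA precursor gene. Their 3 regions had 58, 224 and 229 tags in replicate 1 and 53, 243 and 247 in replicate 2. Their folds were 6.43, 8.61 and 6.49, and 5.93, 8.08 and 6.93, against at least 21.7 and 37.4 for the other 20 promoter-class regions. Since the fold divides by the local background, these tags stood over a higher background than those of the other promoter-class regions.

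The remaining promoter-class regions were mostly of low depth. MIR490, a microRNA within the muscarinic receptor gene CHRM2, had a region without annotated repeat on chromosome 7 (136586894 to 136587006) with 18 and 10 tags at folds of 73.9 and 95.2. MIR4298, within the leukocyte gene LSP1, had 3 regions on chromosome 11 with 12, 18 and 21 tags in replicate 1 and 5, 5 and 19 in replicate 2. MIR3141 on chromosome 5 had 3 regions on a TGGA repeat with 17, 5 and 13 tags and 18, 6 and 11 tags. At MIR3614, within TRIM25, a ubiquitin ligase of antiviral signalling, 13 tags in each replicate gave folds of 102 and 38.0. The rest had 5 to 37 tags, apart from a MIR4261 region on chromosome 2 within RRM2, a ribonucleotide reductase subunit, with 10 and 71 tags, and a MIR598 region on chromosome 8 within XKR6 with 109 and 33.

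**Figure D4:**
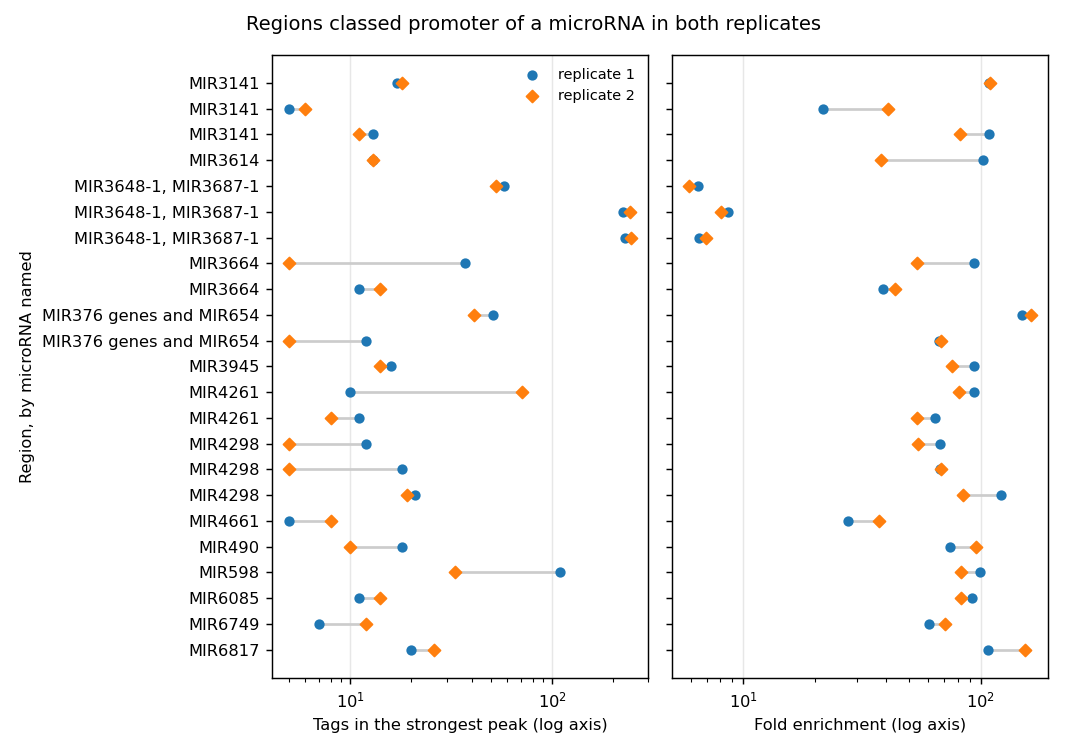
Tags in the strongest peak (left, log axis) and fold enrichment (right, log axis) of the 23 regions classed promoter of a microRNA in both replicates, with circles for replicate 1 and diamonds for replicate 2. The 3 MIR3648-1 and MIR3687-1 regions have up to 229 and 247 tags but folds below 9, while the MIR376 region has the highest folds at 51 and 41 tags.

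Some regions name several microRNAs, often members of 1 cluster. Of the 523 regions, 79 (15.1%) named 2 or more microRNAs, in 42 different sets, of which 8 held 3 or more and the largest held 41. Among 38 classical clusters in a list chosen with earlier results of these data known, 10 had a member named in either list and 4 had a shared region. These 4 were the 14q32 cluster, MIR1-1 with MIR133A2, MIR193B with MIR365A, and MIR30A. The like shares over all microRNA clusters were not computed. The imprinted 14q32 cluster, which is expressed from the maternal copy, was named for 45 of its 47 listed microRNAs by 6 regions over 201.4 kb, all on tandem repeats. A TCTA repeat from 101382959 to 101383104 named 9 microRNAs with 27 and 18 tags at folds of 121 and 95.2. The 3 regions from 101583992 to 101584358 named the set of 41 with 19, 8 and 20 tags in replicate 1 and 16, 9 and 12 in replicate 2. Naming 41 microRNAs there comes from 1 short TCCA repeat tract, so the count of cluster members does not count binding sites.

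The other clusters had fewer shared regions. MIR1-1 and MIR133A2, microRNAs of skeletal and heart muscle, had 4 regions on chromosome 20 with 5 to 21 tags in replicate 1 and 6 to 15 in replicate 2. MIR193B and MIR365A had 2 regions on chromosome 16 with 17 and 9 tags and 16 and 8 tags. MIR30A had 1 region on chromosome 6 (72194342 to 72194437) with 19 and 22 tags at folds of 135 and 218. The 17-92 cluster was named by 1 peak of 5 tags in replicate 1 at a fold of 28.0 and by none in replicate 2. The 19q13 cluster, named C19MC, and the MIR144 with MIR451A cluster of red cells were not named in either list.

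Outside the list, the largest set by regions was near DGCR8, the RNA-binding subunit of the Microprocessor. MIR1286, MIR1306, MIR3618 and MIR6816 were named together by 6 regions on chromosome 22 from 20149667 to 20152051, all on ACC repeats, and RefSeq places MIR1306 and MIR3618 within DGCR8. The strongest of them by fold, from 20151069 to 20151307, had 73 tags in replicate 1 and 47 in replicate 2, at folds of 229 and 149.6, and the weakest in replicate 2 had 5 tags there and 24 in replicate 1. Of the other sets, MIR203A with MIR203B on chromosome 14 had 3 regions on TCCA repeats, the strongest with 99 and 24 tags at folds of 162 and 163. MIR122 with MIR3591, of which MIR122 is a liver microRNA, had 3 regions on chromosome 18 at lower folds of 40.3 to 54.4.

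The blood and leukaemia microRNAs with a region shared by both replicates were MIR155, MIR10A, MIR196A1 and MIR203A. They are 4 of 70 in a list chosen with earlier results known, of which 17 were named in either list. The share of all microRNA genes that were named in either list was not computed, so the 17 of 70 have no background. The 4 of 17 stand beside 343 of all 528 named microRNAs, and the 6 members of the 17-92 cluster among the 17 were named by the same single peak. MIR155 is a regulator of lymphoid and myeloid cells. It was named for an intergenic region on chromosome 21 from 26860117 to 26860420, together with MIR155HG, LINC00158, LINC00515 and MRPL39. This region had 112 tags in replicate 1 and 107 in replicate 2, at folds of 154 and 129, with no annotated repeat in either list. A neighbouring region had 46 and 34 tags at folds of 63.7 and 39.2, and another on a TGGA repeat from 26887085 to 26887166 had 16 and 12. The folds of the 26860117 region stood above the medians of 53.4 and 50.9 of the 73 microRNA regions without an annotated repeat. MIR10A and MIR196A1, in the HOXB cluster, were named on chromosome 17 from 46613613 to 46613731 with 24 and 19 tags at folds of 102 and 76.3, in a stretch labelled AluSx in replicate 1 and TCTA in replicate 2.

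Other blood microRNAs were named in 1 list or at places that did not overlap. MIR142 had a promoter peak in replicate 1 only, with 5 tags at a fold of 28.7. MIR181A1 and MIR181B1 were named by a peak of 6 tags in replicate 1 and by peaks of 6 and 12 tags in replicate 2 that did not overlap it. MIR34A, a target of p53, was named in replicate 2 only, by peaks of 13 and 5 tags, and MIR34B and MIR34C in replicate 1 only, by a peak of 9. At 5 tags a peak found in 1 list is not shown to be absent from the other library, since replicate 2 recovered 54 of the 251 replicate 1 microRNA peaks with 5 tags. Of microRNA peaks with 9 to 15 tags, as for MIR34A and for MIR34B with MIR34C, 69.1% in replicate 1 and 87.6% in replicate 2 were found in the other list.

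The share of shared regions that name a microRNA was highest on chromosomes 14, 17 and 22. Such regions made up 14.7% of those of chromosome 14 (38 of 259, 10.9% to 19.5%), 11.8% of those of chromosome 17 and 10.8% of those of chromosome 22. At the other end they made up 2.64% of those of chromosome 4 (16 of 607, 1.63% to 4.24%). The density of microRNA genes differs between chromosomes and was not used here, so these shares describe the annotation and the peaks together. The 35 regions of chromosome 17 include 7 named for MIR548W at 1 locus, a gene that RefSeq places on chromosome 16. The 25 of chromosome 22 include 6 near DGCR8 and 9 named for MIR6817. Regions of a locus are not independent, which the intervals do not allow for.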

How the data were processed

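Peak lists of 2 YBX1 ChIP-seq libraries from HEL cells were used. Per the submitters' processing notes, the tools were MACS 1.4, Bowtie2, Trimmomatic 0.36 and bcl2fastq 02.14.01.07, and the build was hg19. Peaks were called with MACS 1.4.2 per replicate against 1 input, per the file headers (p of at most 1e-05). The headers give a MACS parameter d of 20 bp and a tag size of 36 bp, so d was shorter than a tag. The deposited columns are the tag count of a peak, a score made from its p-value, the fold enrichment as a ratio, the false discovery rate as a percent, and width and summit in bp. The deposited lists were filtered and annotated by the authors by a rule not given in the sources used here. The alignment named in the replicate 2 header carries a different number than the label, and the label was followed.

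Shared regions were merged peaks overlapping by at least 1 bp. Class, repeat, tags and fold come from the strongest peak by fold in each replicate. Rotations and both strands of a repeat unit were counted together. Shares carry 95% Wilson intervals. No test was made, since no contrast exists. Analysis used Python 3.11.15, pandas 2.3.3, numpy 2.4.6 and scipy 1.17.1. The overlap and unit functions were tested on simulated data. Members and lists were chosen with earlier results of these data known. Named were the 12 regions with the highest lower fold, promoter regions in both replicates, the microRNAs with the most regions, sets of microRNAs named together, list members with shared regions, and the commonest family. A RefSeq table of GRCh38 gave names, chromosomes and containing genes, and hg19 sequence was not used here.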

Additional observations from a re-analysis of the deposited data

How the results depend on the processing

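Of 77 values recomputed under alternatives, 44 stayed within the spread set for them and 33 moved. Staying within that spread does not mean no change, as the counts of microRNA genes below show. Shared regions fell from 523 to 309 with peaks of p at most 1e-10 and to 316 with the stronger 50% of each list. They fell to 64 without intergenic rows and to 322 with 1 region per locus, since each alternative uses fewer peaks. The rows kept without intergenic ones include the intron class, whose microRNAs all lie on another chromosome in RefSeq. Taking 1 list alone gave 876 to 1089, which count the peaks of that list and not shared regions. MicroRNA genes with a shared region fell from 343 to 36 without intergenic rows. They went to 274 at the stricter p, 279 with the stronger 50% and 409 to 488 named in 1 list, all counted within the spread. The tandem repeat share of 70.6% became 79.0%, 81.7%, 64.1% and 78.6% under those alternatives, and 57.4% to 62.2% with 1 list left out. The ATCC share of 45.3% became 39.8% at the stricter p, 26.8% without intergenic rows, 36.8% per locus (below the 51.8% of AGAT) and 47.7% to 50.6% with 1 list. The median lower fold of 54.4 became 79.6, 77.3, 67.1 and 68.0. Blood microRNAs with a region went from 4 to 0 without intergenic rows, and to 7 to 16 named in 1 list; clusters went from 4 to 1 and to 6 to 9. The share found in the other replicate went from 56.7% to 52.0% and from 79% to 74.4% with an overlap of 50%, to 60.6% and 87.4% at the stricter p, and in replicate 2 to 83.7% with the stronger 50% and 83.6% without intergenic rows. Without symbols on another chromosome in RefSeq, the intergenic share rose from 87.8% to 94.9%. The last alternative, the 1 region per locus and the ATCC share were chosen after seeing the data. Beyond fewer peaks, the cause was not tested. No paired analysis was possible because the design holds 1 antibody and no contrast between groups. Depth limits peaks of 5 to 8 tags.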

Other observations

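Host genes of microRNAs have symbols that end in HG and were not counted as members above. They were named for 43 peaks in replicate 1 and 40 in replicate 2. Of these, 31 and 34 were found in the other list, beside 53.8% and 77.4% of all peaks. Part of the host gene peaks are microRNA peaks already described above, because their rows also name a microRNA, as at MIR155 with MIR155HG. The class was intergenic for 34 and 31 of the host gene peaks and intron for 9 and 9. Over all peaks 57.4% and 58.1% were intergenic and 38.4% and 37.7% intron. An intron of MIR646HG on chromosome 20 had the peak with a fold of 187 and 136 tags in replicate 1, and its replicate 2 peaks there had up to 36 tags. MIR7515HG on chromosome 2 was named by 1 peak of 159 tags in replicate 1 and by 5 peaks of up to 51 tags in replicate 2. MIR99AHG on chromosome 21 was named by 9 and 5 peaks, the one with the most tags an intronic TAGA repeat with 37 and 20. MIRLET7BHG on chromosome 22 was named by 6 peaks in each list, mostly on HAL1-2a_MD elements, while 0 MIRLET7 genes themselves were named. The members left out by place were 58 and 42 peaks on the sex chromosomes and 16 and 15 in the chromosome 1 stretch.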
